A study of Mus musculus with 12 samples.

Results

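Acot1, Cpt1a, Pdk4, Ehhadh, Vnn1, Plin2, Acaa1b and Hadha are 8 genes of mouse liver that are known as targets of the fasting receptor PPAR-alpha and that serve the use of fatty acids. They were chosen by symbol, and each symbol matched 1 of the 40551 Ensembl identifiers in the count tables. All 8 were among the 15070 genes that a filter on low counts kept. Whole-liver RNA was sequenced in 12 libraries, 3 for each of 4 genotypes, in a study of livers that lack MCL1, a survival protein of the BCL2 family, with and without STING, the adaptor of cytosolic DNA sensing. WT mice were the controls. Mcl1Δhep mice carry floxed Mcl1 alleles and an Alb-Cre transgene, so that the albumin promoter drives the deletion in hepatocytes while the other liver cells keep the gene. Sting1-/- mice carry the deletion in every cell, and Mcl1Δhep Sting1-/- mice, made by crossing, combine both deletions. The WT and Mcl1Δhep livers were from mice 2 months old, and both sexes were used. The ages in the other 2 genotypes, the feeding state and the hour of sampling are not given in the sources used here.

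PPAR-alpha is a nuclear receptor that binds DNA together with a retinoid X receptor and responds to fatty acids, which reach the hepatocyte in quantity when food is withheld. Its targets carry fatty acids through uptake, activation, entry into mitochondria, beta-oxidation in mitochondria and peroxisomes, omega-oxidation and ketone synthesis, and others store the surplus in lipid droplets or turn the cell away from glucose. Among the 8 genes, Cpt1a and Hadha act in mitochondria, Ehhadh and Acaa1b in peroxisomes, Acot1 in the cytosol, Pdk4 on pyruvate use, Plin2 on lipid droplets, and Vnn1 at the cell surface.

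Mcl1 was checked first. The level in CPM (a gene's reads relative to its library's total, scaled for composition) averaged 98.6 ± 7.36 (SD, n = 3) in WT, 29.0 ± 4.58 in Mcl1Δhep, 81.8 ± 7.20 in Sting1-/- and 22.3 ± 3.96 in Mcl1Δhep Sting1-/- livers, and the Mcl1 groups did not overlap with their controls. For Sting1, 2.36 ± 0.219 CPM in WT and 1.86 ± 0.779 CPM in Sting1-/- livers overlapped (log2 fold change −0.34, adjusted p = 0.998). Mcl1Δhep livers held 4.75 ± 1.17 CPM, above WT (1.01, adjusted p = 0.0324), and Mcl1Δhep Sting1-/- livers 2.25 ± 0.321 CPM, below Mcl1Δhep without overlap but short of the threshold (−1.07, adjusted p = 0.134). Sting1 was thus not called lower in either comparison, and which exons the allele removes is not given in the sources used here. The genotypes with Sting1-/- in their name are therefore libraries labelled so. The paper reports that Western blotting showed the knockout in Sting1-/- mice. It also reports that their splenocytes lacked the downstream phosphorylation after a STING agonist. Gene-level RNA counts could not check the label in these libraries, and they do not measure the protein. Library totals ran from 28826367 to 45266387 counts. Transcripts of 4 Y-linked genes reached 141 to 156 CPM in WT replicates 2 and 3 and Mcl1Δhep Sting1-/- replicate 1 and at most 0.189 CPM in the 9 others. Mcl1Δhep replicate 3 held 1586 CPM of 8 skeletal muscle markers against at most 9.08 CPM elsewhere, and the share of small structured RNA was 0.315%, 2.78% and 1.55% in the Mcl1Δhep libraries against 0.192% to 0.982% in the rest. Hepatocyte identity genes were abundant in every library (summed 118904 to 183582 CPM over 10 markers), and 1 of the 10, Cyp2e1, was lower in Mcl1Δhep than in WT livers. Macrophage markers were higher there in 5 of 8, other leukocyte markers in 3 of 5 tested and stellate cell markers in 3 of 6. Of all genes 10.8% were called higher there. Of 6 cholangiocyte, 5 endothelial and 4 tested adipocyte markers 0 were called. In whole liver, fewer cells of a type and less RNA per cell cannot be told apart.

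Pdk4 and Plin2 were higher in Mcl1Δhep than in WT livers, and Pdk4 was also higher in Mcl1Δhep Sting1-/- than in Sting1-/- livers. The Plin2 call and the second Pdk4 call each held in 7 of 12 fits with 1 library left out. The genes of fatty acid oxidation proper, Cpt1a, Hadha, Ehhadh and Acaa1b, did not pass the test in any of the comparisons. Against WT, 2 of 8 were called higher and 0 lower in Mcl1Δhep (edgeR quasi-likelihood test, adjusted p below 0.05), while 20.2% of all genes tested were called, 10.8% higher and 9.43% lower. Upper-quartile scaling shifted the median of all genes by 0.13 on the log2 scale and turned the share of higher calls from 53.4% to 73.4%, with the same 2 of the 8 genes called. The groups did not overlap for 4 of the 8, Pdk4, Plin2 and Acot1 (higher) and Acaa1b (lower), against 33.3% of all genes. The median log2 fold change of the 8 was 0.15, and that of all genes was 0.00 to 2 decimals (−0.0049). The median of the 8 moved to 0.70 without WT replicate 1 and 0.68 with the share of small structured RNA as a covariate, and turned to −0.12 without Mcl1Δhep replicate 1 and −0.04 with Y-linked expression as one, so the 8 had no stable common direction.

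**Figure D1:**
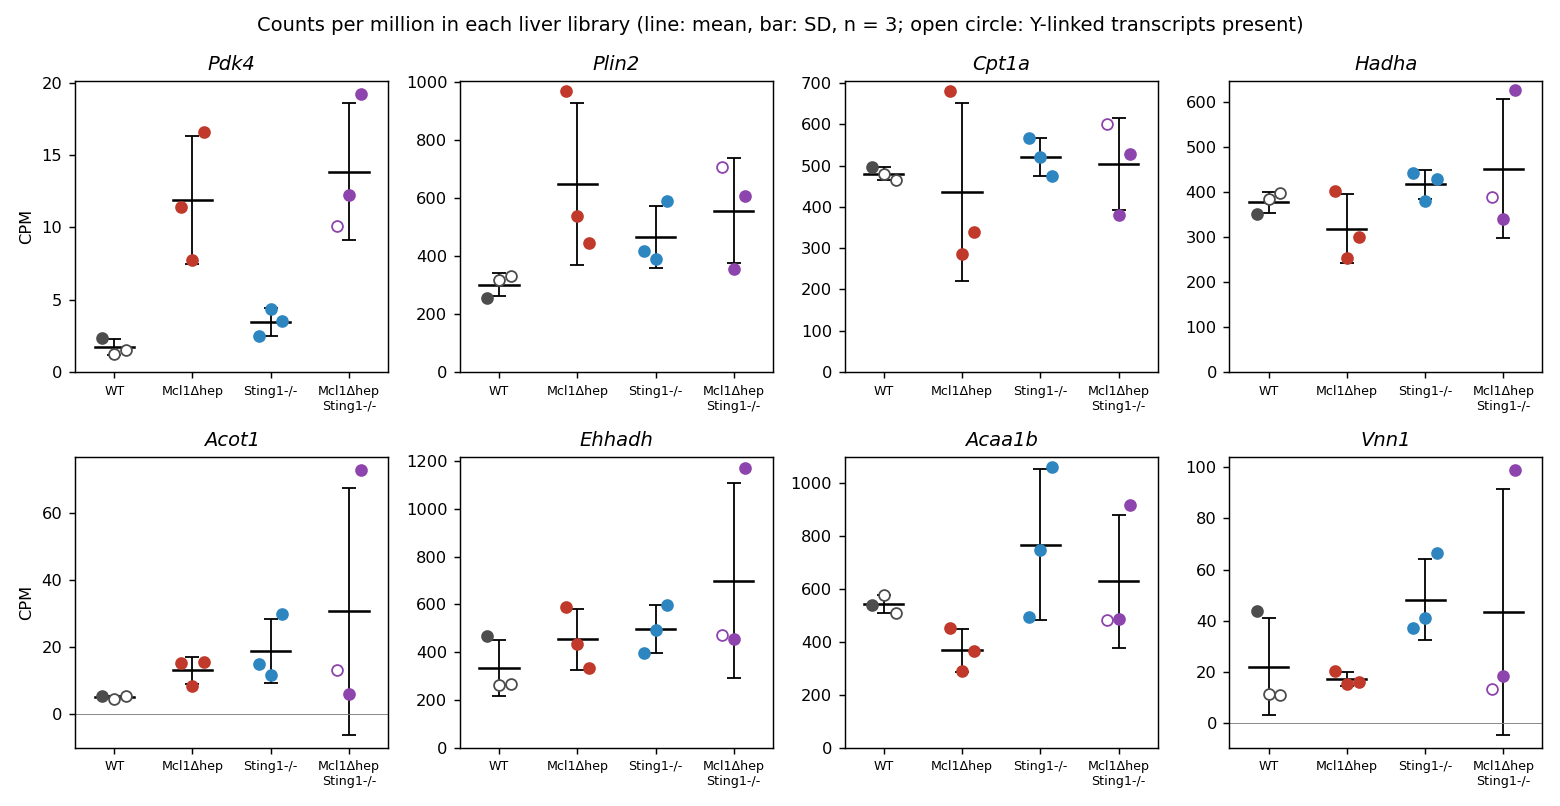
CPM of the 8 genes (vertical axes, linear, with a line at 0 and room below it where an SD bar needs it) in each of 12 liver libraries by genotype, with the mean (line) and SD (bar) of 3 libraries; open circles are the 3 libraries with Y-linked transcripts. The 3 Mcl1Δhep and 3 Mcl1Δhep Sting1-/- libraries lie above all others for Pdk4 (7.77 to 19.2 CPM), and Mcl1Δhep Sting1-/- replicate 3 is the highest for Acot1, Pdk4, Ehhadh, Vnn1 and Hadha.

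Pdk4 encodes pyruvate dehydrogenase kinase 4, which switches off the pyruvate dehydrogenase complex and so spares glucose when fatty acids are burned. Its level was 2.37, 1.28 and 1.55 CPM in the WT livers (90, 43 and 47 counts) and 11.4, 7.77 and 16.6 CPM in the Mcl1Δhep livers (552, 254 and 524 counts). The livers labelled Sting1-/- held 2.47, 4.38 and 3.55 CPM and those labelled Mcl1Δhep Sting1-/- held 10.1, 12.2 and 19.2 CPM. All 6 libraries with the Mcl1 deletion thus lay above all 6 without it, on either Sting1 background. The rise over WT was 2.77 on the log2 scale (SE 0.36, adjusted p = 0.00133), a ratio of means of 6.87, and it passed the test with each of the 12 libraries left out in turn (2.46 to 3.07). In Mcl1Δhep Sting1-/- against Sting1-/- livers Pdk4 was higher by 2.0 (SE 0.34, adjusted p = 0.0305), a ratio of 4.0. This second call was lost when Mcl1Δhep Sting1-/- replicate 1 or 2 or any one Sting1-/- library was left out (log2 fold changes over all left-out fits 1.71 to 2.20) and when only the 6 libraries compared were fitted (2.0, adjusted p = 0.0683). With the 3 libraries that hold Y-linked transcripts left out, which leaves 1 WT library, neither Pdk4 call held (2.32 and 2.18). With all 12 libraries and Y-linked expression as a covariate, both calls held (2.37, adjusted p = 0.00591, and 2.19, adjusted p = 0.0369). The median WT library counted fewer than 50 Pdk4 reads, so the size of the ratio rests on a low WT level.

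The other pyruvate dehydrogenase kinases did not follow Pdk4. On a scale that divides by transcript length (TPM, relative to the sum over all genes), WT livers held 55.7 ± 23.5 TPM of Pdk1, 23.8 ± 2.93 of Pdk2, 0.398 ± 0.0486 of Pdk3 and 1.66 ± 0.631 of Pdk4 (SD, n = 3). In Mcl1Δhep livers these were 22.2 ± 8.61, 12 ± 3.61, 0.667 ± 0.274 and 10.9 ± 4.05 TPM. Pdk1 fell by 1.25 (SE 0.39, adjusted p = 0.0424) and Pdk2 by 0.92 (SE 0.22, adjusted p = 0.0163) on the log2 scale of counts, while Pdk3 did not pass (0.78, adjusted p = 0.0852). Pdk1 lost its call in 9 of 12 fits with 1 library left out and Pdk2 in 2 of 12. In Mcl1Δhep Sting1-/- against Sting1-/- livers none of the 3 passed: Pdk1 was −0.85 and Pdk2 −0.59, adjusted p = 0.438 and 0.313.

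**Figure D2:**
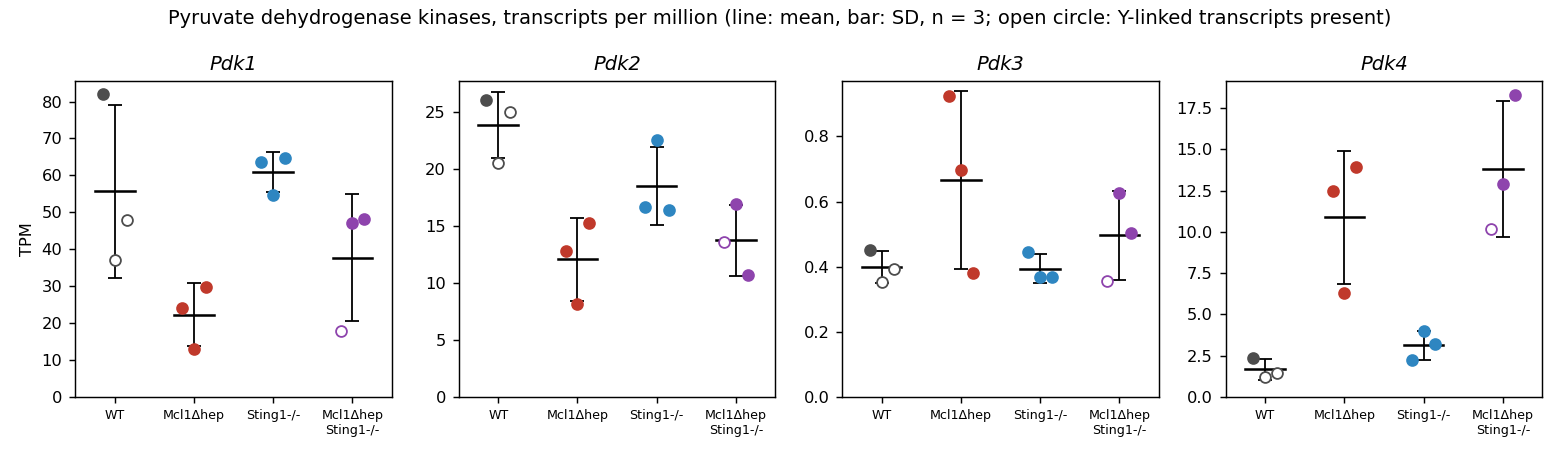
Levels in TPM (relative to exon length) of the pyruvate dehydrogenase kinases Pdk1 to Pdk4 in each liver library by genotype (vertical axes linear from 0), with mean (line) and SD (bar) of 3 libraries and open circles for libraries with Y-linked transcripts. From WT to Mcl1Δhep the mean of Pdk4 goes from 1.66 to 10.9 TPM and that of Pdk2 from 23.8 to 12 TPM.

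Plin2 encodes perilipin 2, the coat protein of lipid droplets in hepatocytes. It stood at 255, 318 and 332 CPM in WT, 968, 538 and 444 CPM in Mcl1Δhep, 419, 390 and 590 CPM in Sting1-/- and 707, 355 and 609 CPM in Mcl1Δhep Sting1-/- livers. Every WT library lay below every other library, and the 3 remaining genotypes overlapped. The rise in Mcl1Δhep was 1.11 (SE 0.32, adjusted p = 0.0311, ratio 2.15), and it was led by Mcl1Δhep replicate 1. Without that library it was 0.70 (adjusted p = 0.0753). The call was also lost without Mcl1Δhep replicate 2, without each WT library, when only WT and Mcl1Δhep libraries were fitted (1.13, adjusted p = 0.0655) and with the share of small structured RNA as a covariate (1.44, adjusted p = 0.0752). Against Sting1-/- livers, the double deletion gave 0.26 (95% interval −0.43 to 0.94, adjusted p = 0.846).

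The promoters of the 2 genes that rose in Mcl1Δhep livers are shown because PPAR-alpha and the retinoid X receptor bind a direct repeat of the half-site AGGTCA. The sequences are the 250 bases before the start of the canonical transcript in the GRCm39 genome, read 5′ to 3′ on the minus strand at chr6:5496331-5496580 (Pdk4) and chr4:86588460-86588709 (Plin2). Capitals mark the half-site AGGTCA or its reverse complement TGACCT.
Pdk4: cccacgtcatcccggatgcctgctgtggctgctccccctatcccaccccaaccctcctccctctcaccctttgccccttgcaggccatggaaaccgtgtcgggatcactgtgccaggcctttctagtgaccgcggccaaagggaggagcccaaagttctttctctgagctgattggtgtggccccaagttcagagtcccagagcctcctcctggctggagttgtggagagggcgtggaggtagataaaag
Plin2: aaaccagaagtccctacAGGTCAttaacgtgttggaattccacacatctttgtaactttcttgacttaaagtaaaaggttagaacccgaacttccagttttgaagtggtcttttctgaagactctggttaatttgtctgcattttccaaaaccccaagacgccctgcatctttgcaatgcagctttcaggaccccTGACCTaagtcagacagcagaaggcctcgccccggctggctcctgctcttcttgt
Plin2 held 1 half-site on each strand, and Pdk4 held 0. The half-site was present in 4 of the 8 windows (Cpt1a, Vnn1, Plin2 and Hadha) and in 13.1% of the 21768 windows of protein-coding genes. The whole repeat AGGTCANAGGTCA, searched on both strands with at most 1 mismatch over 3000 bases before and 1000 after the start, occurred in 1 of the 8 genes, Acaa1b, and in 7.25% of all windows; it contains the half-site, so the 2 searches overlap. In Acaa1b the match lay 949 bases before the start, on the plus strand at chr9:118987096-118987124, with the match in capitals.
Acaa1b: caagtgggAGGCCAGAGGTCAgatcccca
A match of letters is no evidence of binding, and a window without one says nothing about the receptor.

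Cpt1a and Hadha serve mitochondrial oxidation. Cpt1a encodes carnitine palmitoyltransferase 1A, which controls the entry of long-chain fatty acids, and Hadha encodes the alpha subunit of the trifunctional protein, which carries out later steps of the oxidation spiral. Cpt1a measured 497, 479 and 466 CPM in WT and 682, 286 and 340 CPM in Mcl1Δhep livers. It measured 568, 520 and 475 CPM in Sting1-/- and 600, 382 and 529 CPM in Mcl1Δhep Sting1-/- livers. The Mcl1Δhep libraries fell on both sides of WT, with replicate 1 the highest of all 12 and replicate 2 the lowest. The log2 fold change from WT was −0.14 (95% interval −0.76 to 0.47, adjusted p = 0.751), and it turned to 0.09 without Mcl1Δhep replicate 2. Without Mcl1Δhep replicate 1, Cpt1a was called lower than in WT (−0.62, adjusted p = 0.0281), and Mcl1Δhep Sting1-/- was called higher than Mcl1Δhep (0.69, adjusted p = 0.0285). In that fit 34.1% and 20.2% of all genes were called in the same comparisons. Hadha measured 351, 384 and 397 CPM in WT, 403, 254 and 300 CPM in Mcl1Δhep, 442, 381 and 429 CPM in Sting1-/- and 388, 341 and 627 CPM in Mcl1Δhep Sting1-/- livers. The groups overlapped in all comparisons. The change from WT to Mcl1Δhep was −0.24 (95% interval −0.75 to 0.26, adjusted p = 0.467). Hadha overlaps with Hadhb, the gene of the beta subunit, over 984 bases on the opposite strand. Hadhb averaged 112 ± 5.80 CPM in WT and 111 ± 12.6 CPM in Mcl1Δhep livers (−0.01, adjusted p = 0.973). Whether counting used strand is not given in the sources used here.

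Ehhadh and Acaa1b encode peroxisomal enzymes, the bifunctional hydratase and dehydrogenase and a thiolase that closes the cycle. Ehhadh stood at 468, 263 and 267 CPM in WT, 590, 436 and 335 CPM in Mcl1Δhep, 398, 494 and 598 CPM in Sting1-/- and 471, 455 and 1171 CPM in Mcl1Δhep Sting1-/- livers. The 2 lowest of the 12 values were WT replicates 2 and 3, which hold Y-linked transcripts, while WT replicate 1 lay among the other genotypes. Ehhadh gave 0.45 (95% interval −0.37 to 1.26, adjusted p = 0.409) for Mcl1Δhep against WT, and −0.03 with Y-linked expression as a covariate. Acaa1b stood at 537, 577 and 509 CPM in WT and 450, 288 and 365 CPM in Mcl1Δhep livers, with no overlap. It stood at 491, 747 and 1059 CPM in Sting1-/- and 481, 485 and 917 CPM in Mcl1Δhep Sting1-/- livers, both above every Mcl1Δhep library. Acaa1b thus ran against Pdk4 and Plin2 from WT to Mcl1Δhep, at −0.56 (SE 0.31, adjusted p = 0.207). Its near copy Acaa1a measured 140 ± 20.3 CPM in WT and 109 ± 19.8 CPM in Mcl1Δhep livers (−0.36, adjusted p = 0.15), and reads shared between the 2 copies may have been split.

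Acot1 encodes a cytosolic thioesterase that frees fatty acids from coenzyme A. It stood at 5.36, 4.69 and 5.45 CPM in WT, the tightest group. Mcl1Δhep livers held 15.2, 8.47 and 15.6 CPM, Sting1-/- livers 15.1, 11.8 and 29.8 CPM and Mcl1Δhep Sting1-/- livers 13.2, 5.97 and 73.0 CPM. All 9 libraries outside WT lay above the 3 WT libraries. The log2 fold change in Mcl1Δhep against WT was 1.34 (SE 0.71, adjusted p = 0.194) and did not pass. Mcl1Δhep Sting1-/- replicate 3, at 73.0 CPM, is far from the others, and Acot1 was called without it (1.35, adjusted p = 0.0351) and when only WT and Mcl1Δhep libraries were fitted (1.36, adjusted p = 0.0226). Acot1 lies within a row of like genes on chromosome 12, where Acot2 (mitochondrial) and the peroxisomal Acot3, Acot4 and Acot5 and Acot6 are its neighbours. Acot2 passed in Mcl1Δhep against WT (1.61, SE 0.51, adjusted p = 0.0432), with 7.04, 1.60 and 3.30 CPM in WT and 17.3, 10.6 and 8.66 CPM in Mcl1Δhep livers. This call held in 4 of 12 fits with 1 library left out. The lower Acot2 values in WT, those of replicates 2 and 3, come from the WT libraries with Y-linked transcripts. Once a Y-linked term was added to the fit, Acot2 fell to 0.96 and did not pass (adjusted p = 0.177). Without that term, Acot3 (−0.12, adjusted p = 0.965), Acot4 (0.50, adjusted p = 0.555) and Acot6 (1.18, adjusted p = 0.065) did not pass. Acot5 was at or near 0 counts in every library. Reads of such close copies may be split or lost in counting.

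Vnn1 encodes vanin 1, a pantetheinase that releases cysteamine and a precursor of coenzyme A. It stood at 44.0, 11.3 and 11.2 CPM in WT, 20.3, 15.5 and 16.2 CPM in Mcl1Δhep, 37.3, 41.2 and 66.4 CPM in Sting1-/- and 13.6, 18.3 and 98.9 CPM in Mcl1Δhep Sting1-/- livers. The 3 libraries with Y-linked transcripts were the 3 lowest of the 12 (11.2 to 13.6 CPM against 15.5 to 98.9 CPM). The change from WT to Mcl1Δhep was −0.35 (95% interval −1.87 to 1.16, adjusted p = 0.746). With a term for Y-linked expression it was −1.39 (adjusted p = 0.118), and without WT replicate 1 it turned to 0.62 (adjusted p = 0.545). Its paralog Vnn3 gave −0.43 (adjusted p = 0.287) in the same comparison.

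The term for Y-linked expression, looked at after these values were seen, passed for 1.01% of all genes and for 0 of the 8, with 2 of the 8 below an unadjusted p of 0.05. Vnn1 came nearest at −2.04 (SE 0.49, adjusted p = 0.103), followed by Ehhadh at −0.80 (SE 0.33, adjusted p = 0.472). Among related genes of omega-oxidation and the Acot row, it passed for Acot3 (−6.09, adjusted p = 0.00303), Acot4 (−1.90, adjusted p = 0.0207), Cyp4a10 (−2.88, adjusted p = 0.0438), Cyp4a14 (−4.66, adjusted p = 0.00827) and Cyp4a12b (6.68, adjusted p = 0.00241). Acot3 was at 0.386 to 3.96 CPM in the 3 libraries with Y-linked transcripts and at 15.9 to 207 CPM in the 9 others. WT held 2 of those 3 libraries, Mcl1Δhep Sting1-/- held 1 and the other genotypes 0, so each of the genotype comparisons sets groups with unequal numbers of them against each other.

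**Figure D3:**
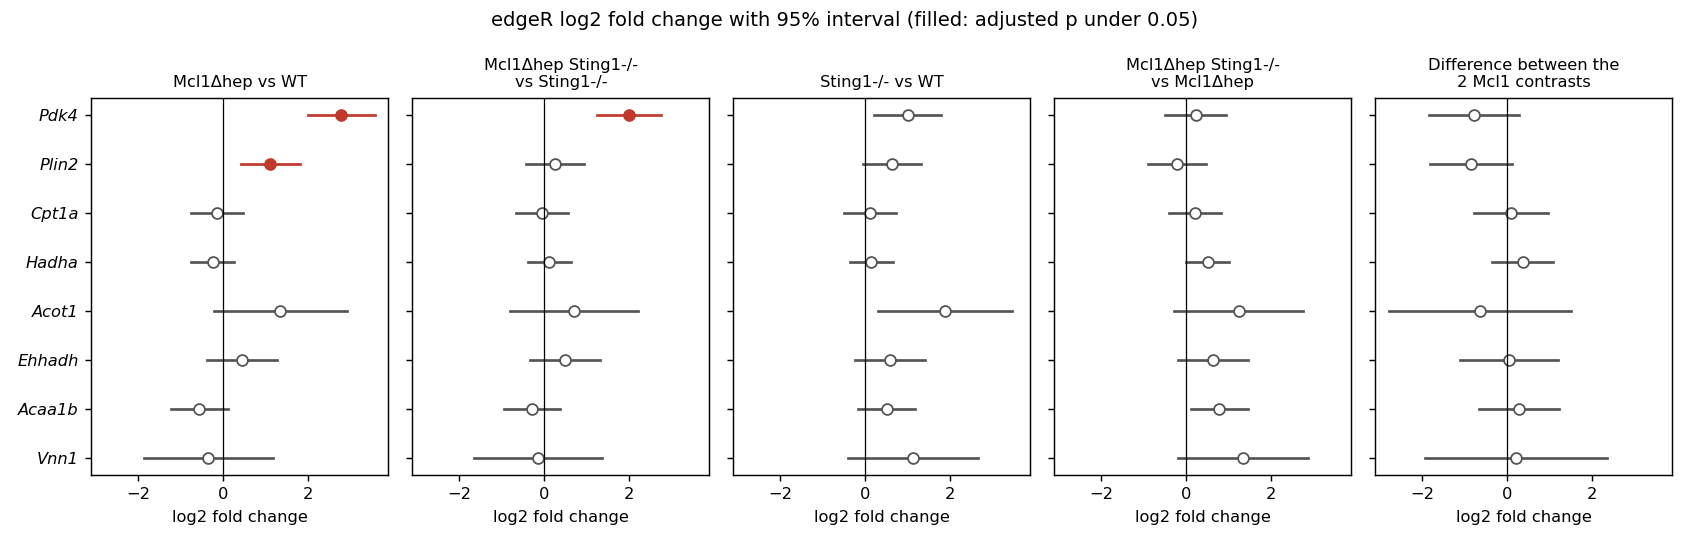
Fitted log2 fold change of the 8 genes (points) with its 95% interval (lines) in 4 genotype comparisons and in the difference between the 2 Mcl1 contrasts; filled red points passed the adjusted threshold of 0.05. Pdk4 and Plin2 are filled for Mcl1Δhep against WT (2.77 and 1.11) and Pdk4 alone for Mcl1Δhep Sting1-/- against Sting1-/- (2.0).

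Deleting Mcl1 on the Sting1-/- background left 1 of the 8 genes called, Pdk4, which was higher, against 0.803% of all genes called and 0.677% called higher. Pdk4 was also the 1 gene of the 8 whose groups did not overlap, against 22.3% of all genes. The other 7 log2 fold changes ran from −0.29 (Acaa1b) to 0.70 (Acot1), and the median of the 8 was 0.19 (−0.12 without Mcl1Δhep Sting1-/- replicate 3). Without Mcl1Δhep Sting1-/- replicate 3, Acot1, Ehhadh and Hadha turned from positive to negative, at −0.96, −0.08 and −0.17. The effect of the Mcl1 deletion on the 2 backgrounds was then compared directly. The difference passed for 0 of the 8 and for 0% of all genes (edgeR), with 0 of the 8 and 14.4% of all genes below an unadjusted p of 0.05 and 170 genes called by DESeq2. For Pdk4 the difference was −0.78 (95% interval −1.83 to 0.28, adjusted p = 0.467) and for Plin2 −0.85 (95% interval −1.82 to 0.12, adjusted p = 0.391), so neither a difference nor its absence was shown.

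The libraries labelled Sting1-/- were compared with WT to see whether Sting1 loss alone was accompanied by a shift. None of the 8 was called, and 0% of all genes were called (edgeR). Below an unadjusted p of 0.05 lay 5.45% of all genes and 2 of the 8, Acot1 (1.87, adjusted p = 0.82) and Pdk4 (0.99, adjusted p = 0.813). DESeq2 called 51 genes and 0 of the 8, but gave no p-value for Vnn1. All 8 fold changes were positive (0.12 to 1.87, median 0.60), where 50.5% of all genes were positive. The genes were measured in the same libraries, so their signs, here and in the lists below, do not count as separate evidence. The groups did not overlap for Acot1, Pdk4 and Plin2, all higher, against 12.5% of all genes. With Y-linked expression as a covariate, Vnn1 went from 1.12 to 0.09 and Ehhadh from 0.58 to 0.10, while Plin2 went from 0.63 to 0.94. The median of the 8 was 0.27 in that fit. In the lists outside the 8, 0 genes were called by edgeR. Fold changes were positive for 15 of 15 mitochondrial beta-oxidation genes (median 0.19), 10 of 15 peroxisomal genes (0.11) and 6 of 6 carnitine shuttle genes (0.68), but for 3 of 10 PPAR-alpha partners (−0.04) and 5 of 12 lipid droplet genes (−0.08).

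Between Mcl1Δhep Sting1-/- and Mcl1Δhep livers, the comparison that asks what Sting1 loss changes in Mcl1-deleted livers, 0 of the 8 and 0% of all genes were called by edgeR. Below an unadjusted p of 0.05 lay 20.6% of all genes and 2 of the 8, Acaa1b (0.77, adjusted p = 0.194) and Hadha (0.50, adjusted p = 0.243). DESeq2 called 681 genes and 0 of the 8, again without a p-value for Vnn1. Acaa1b was the 1 gene of the 8 whose groups did not overlap, against 18.2% of all genes. Fold changes were positive for 7 of the 8, with a median of 0.56. Without Mcl1Δhep Sting1-/- replicate 3 the median was −0.03, and Acot1 went from 1.23 to −0.45, Vnn1 from 1.33 to −0.12, Ehhadh from 0.62 to 0.03, Acaa1b from 0.77 to 0.40 and Hadha from 0.50 to 0.20. Pdk4 differed by 0.22 (95% interval −0.50 to 0.93) and Plin2 by −0.22 (95% interval −0.91 to 0.46). These 4 comparisons share genotypes in pairs, so their values are set side by side and not counted as separate evidence.

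The 8 genes differed in how far they varied. The highest of the 12 libraries exceeded the lowest 15.6-fold for Acot1, 15.1-fold for Pdk4 and 8.81-fold for Vnn1, but 2.47-fold for Hadha and 2.39-fold for Cpt1a. Mcl1Δhep Sting1-/- replicate 3 lay above the gene's own mean for 8 of 8 genes (median 1.06 on the log2 scale). WT replicates 2 and 3 were the lowest by this measure (−0.67 and −0.62), followed by Mcl1Δhep replicate 2 (−0.54). Per transcript length in WT livers, Acaa1b (424 ± 32.0 TPM) and Ehhadh (390 ± 158) led, Cpt1a (158 ± 12.6), Hadha (142 ± 2.84) and Plin2 (141 ± 13) followed, and Vnn1 (23.7 ± 21.3), Acot1 (4.73 ± 0.505) and Pdk4 (1.66 ± 0.631) were the lowest. The WT ranges of Acaa1b and Ehhadh overlapped, as did those of Hadha and Plin2 and of Cpt1a and Plin2, whereas the Cpt1a libraries (148 to 172 TPM) lay above the Hadha libraries (140 to 145 TPM). With the length of the longest transcript in place of all exons, the order of these 3 became Hadha, Plin2 and Cpt1a.

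**Figure D4:**
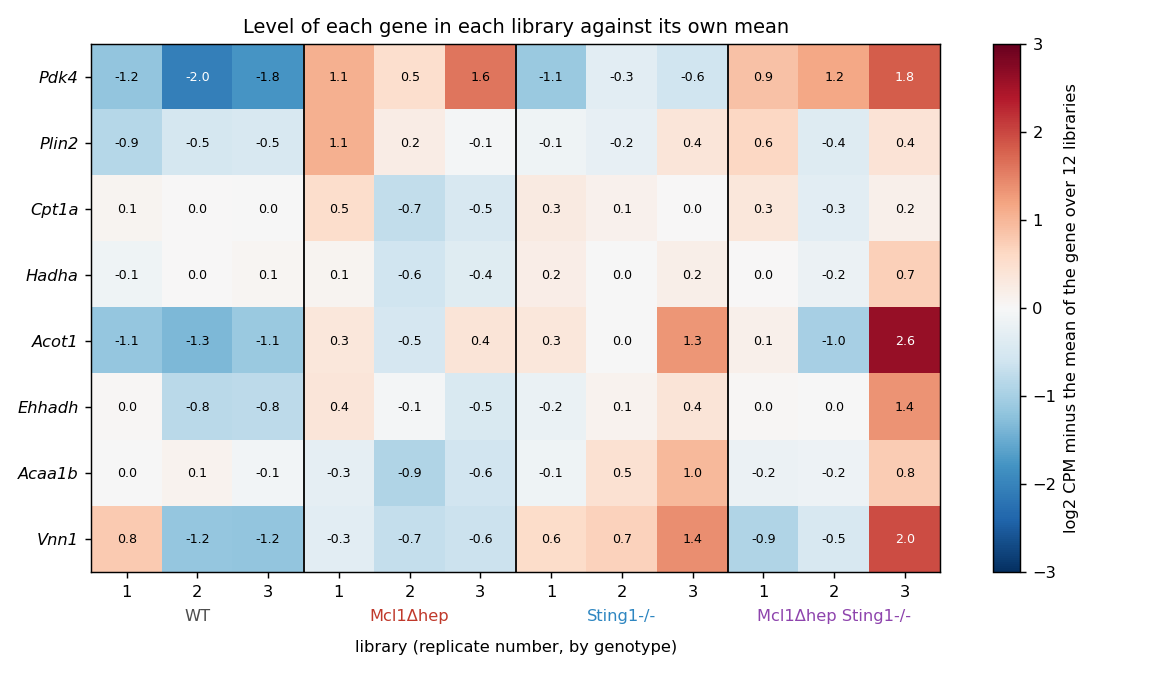
Log2 CPM of each of the 8 genes (rows) minus that gene's mean over 12 libraries (colour and number in each cell), with libraries in columns by genotype and replicate number. Mcl1Δhep Sting1-/- replicate 3 is above the mean for 8 of 8 genes, and Pdk4 is positive in all 6 libraries with the Mcl1 deletion and negative in the other 6.

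Across the 12 libraries, pairs of the 8 genes correlated from −0.156 (Pdk4 with Acaa1b) to 0.81 (Acot1 with Ehhadh), where the points share the genotypes and the library named above. Cpt1a with Hadha reached 0.695 and Acaa1b with Hadha 0.768, whereas Pdk4 with Hadha stood at 0.008. With the genotype means removed, Pdk4 correlated at 0.597 with Acaa1b and 0.331 with Hadha, its 0.61 with Plin2 became −0.182, and Acot1 with Ehhadh stood at 0.726. The 5 genes whose log2 CPM most resembled the mean standardised profile of the 8, among 12551 candidates, were Rnf24 (Pearson r = 0.948), Bcl2l13 (0.926), Crat (0.913), which encodes carnitine acetyltransferase, Wrnip1 (0.883) and Grpel2 (0.881). After the genotype means were removed, Acot12 led (0.974) and Bcl2l13 stayed among the first 5 (0.942). The single closest gene was Cisd3 for Pdk4 (0.927), Ppp2r2d for Plin2 (0.957), Thrap3 for Cpt1a (0.939), Fitm2 for Hadha (0.942), Tamalin for Ehhadh (0.886), Mgll for Acaa1b (0.929), Pctp for Vnn1 (0.948) and a gene without a symbol for Acot1 (0.915).

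The wider pathway was described by 103 other genes in 11 lists, of which 101 were tested. In Mcl1Δhep against WT, 25 of the 101 (24.8%) were called, 11 higher and 14 lower, beside 20.2% of all genes, with a median of −0.10. In Mcl1Δhep Sting1-/- against Sting1-/- livers 0 of the 101 were called by edgeR, with 15 below an unadjusted p of 0.05 and 5 called by DESeq2. These counts were 0, 23 and 6 in Mcl1Δhep Sting1-/- against Mcl1Δhep, 0, 13 and 1 in Sting1-/- against WT, and 0, 13 and 1 for the difference between the Mcl1 contrasts. Of all genes, DESeq2 called 2.95%, 4.77%, 0.264% and 1.15% in these comparisons, in the order given. Below an unadjusted p of 0.05 lay 20.6%, 5.45% and 14.4% of all genes in the last 3. Without Mcl1Δhep replicate 1, edgeR called 12 of the 101 in Mcl1Δhep Sting1-/- against Mcl1Δhep, beside 20.2% of all genes. For the difference between the Mcl1 contrasts it called 7 in that fit, beside 10.2% of all genes. The count of 25 moved with single libraries, as did the share of all genes called, given here in brackets from the same fit. It was 7 without Mcl1Δhep replicate 2 (8.09%) and 16 without Sting1-/- replicate 1 (16.6%). Without WT replicate 2 it was 9 (7.99%) and without WT replicate 3 it was 4 (10.3%). When only WT and Mcl1Δhep libraries were fitted, it was 8 (8.15%). With Y-linked expression as a covariate it was 12 (10.2%), and with the small structured RNA share 0 (2.77%). Of the 25 genes, Rxra, Cd36, Slc27a5 and Acsm3 passed in 12 of 12 fits with 1 library left out, Cidec in 11, and Pdk1, Fgf21, Ucp2 and Plin3 in 3.

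Among PPAR-alpha and its partners, 3 of 10 were lower in Mcl1Δhep livers and 0 higher, beside 9.43% and 10.8% of all genes. Ppara itself stood at 181, 178 and 194 CPM in WT, 123, 71.7 and 116 CPM in Mcl1Δhep, 213, 196 and 158 CPM in Sting1-/- and 115, 169 and 185 CPM in Mcl1Δhep Sting1-/- livers. All Mcl1Δhep libraries lay below all WT libraries, and the fall was 0.83 (log2 fold change −0.83, SE 0.23, adjusted p = 0.0264). It lost its call without Mcl1Δhep replicate 2, WT replicate 2 or WT replicate 3. Rxra, the retinoid X receptor alpha, was at −0.87 (SE 0.19, adjusted p = 0.00973) and passed in 12 of 12 left-out fits, and the coactivator gene Ppargc1b was at −0.90 (SE 0.23, adjusted p = 0.0192).

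Called genes in the lists of fatty acid handling differed in direction. In this comparison 20.2% of all genes were called, 10.8% higher and 9.43% lower. Of 14 uptake and activation genes, the fatty acid transporter Cd36 was higher (1.70, SE 0.38, adjusted p = 0.0117, 151 to 156 CPM in Mcl1Δhep against 27.8 to 75.6 CPM in WT), and Slc27a5 (−0.91, adjusted p = 0.00813), Acsm3 (−1.06, adjusted p = 0.00895) and Slc27a2 (−0.81, adjusted p = 0.0259), which activate fatty or bile acids, were lower. Of 15 mitochondrial beta-oxidation genes and 4 ketogenesis genes 0 were called, although 4 and 1 had an unadjusted p below 0.05. Of 15 peroxisomal genes 3 were lower and 0 higher, among them the transporter gene Abcd3 (−0.88, adjusted p = 0.0324) and Hsd17b4 (−0.61, adjusted p = 0.0348). With 1 library left out, Abcd3 passed in 9 of 12 fits and Hsd17b4 in 7. Of 6 carnitine shuttle genes 1 was called, Cpt1b, the muscle form, at 11.7 CPM in Mcl1Δhep replicate 3, the library with skeletal muscle markers, and 0.6 CPM or less in the other 2; without that library it did not pass (1.08, adjusted p = 0.201). Of 12 lipid droplet genes 4 were higher and 0 lower: Hilpda (1.34, adjusted p = 0.0139), Cidec (2.44, adjusted p = 0.0143), Plin3 (0.88, adjusted p = 0.0382) and Plin5 (1.17, adjusted p = 0.0407). Hilpda passed in 10 of 12 left-out fits and Plin5 in 6. Adipocyte markers summed to 52.1 CPM in Mcl1Δhep replicate 3 and to 2.42 CPM or less in Mcl1Δhep replicates 1 and 2. Cidec stood at 10.3, 9.0 and 9.61 CPM in those 3 libraries against 0.765 to 3.47 CPM in WT, and passed without replicate 3 (2.44, adjusted p = 0.0256).

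Of 7 omega-oxidation genes, Cyp4a31 was higher (2.05, adjusted p = 0.0369), a call that held in 4 of 12 fits with 1 library left out and not with a term for Y-linked expression (1.35, adjusted p = 0.105), and Cyp4a12a (−7.87, adjusted p = 0.0309) and Cyp4a12b (−6.58, adjusted p = 0.0404) were lower. Cyp4a12a stood at 92.6 to 171 CPM in the 3 libraries with Y-linked transcripts and at 0 to 8.40 CPM in the 9 others, and once Y-linked expression was a term of the fit neither Cyp4a12 gene passed (adjusted p = 0.631 and 0.906). Of 11 other PPAR-alpha targets tested, Aqp7 (2.71, adjusted p = 0.0219), Ucp2 (0.66, adjusted p = 0.0413) and Fgf21 (4.28, adjusted p = 0.0444) were higher and Cyp8b1 (−2.23, adjusted p = 0.0338) lower. Fgf21, a hormone of fasting, stood at 15.7, 1.77 and 0.601 CPM in Mcl1Δhep against 0.178 to 0.528 CPM in WT, and without Mcl1Δhep replicate 1 it did not pass (1.93, adjusted p = 0.232). Aqp7 did not pass without Mcl1Δhep replicate 3, the library with muscle and adipocyte markers (2.27, adjusted p = 0.0593). In the fit that carried a Y-linked term, Ucp2 (0.34, adjusted p = 0.28) and Cyp8b1 (−1.63, adjusted p = 0.151) did not pass. Neither Aqp7 (2.53, adjusted p = 0.0739) nor Fgf21 (4.88, adjusted p = 0.0802) passed in that fit. These list counts stand beside 20.2% of all genes called in Mcl1Δhep against WT.

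**Figure D5:**
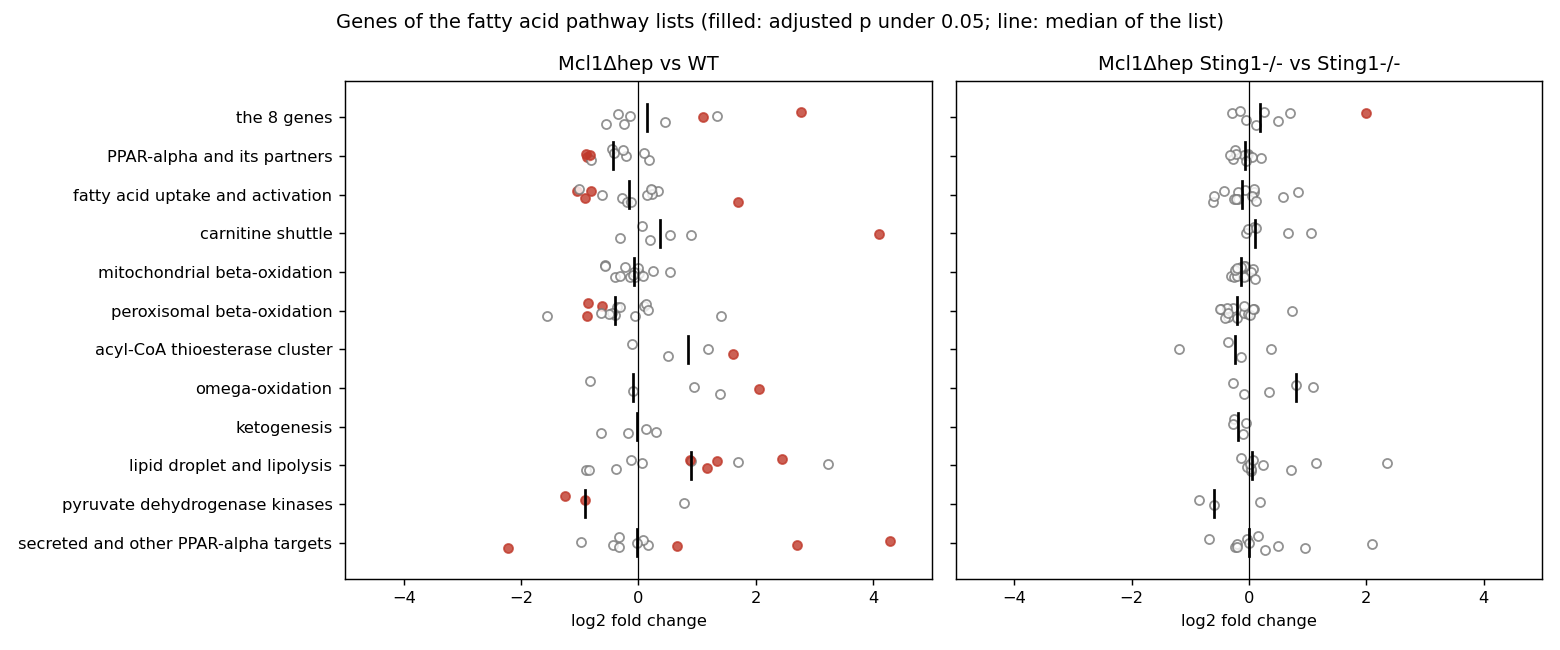
Fitted log2 fold changes of single genes (points; filled red where adjusted p was below 0.05) in the 8 genes and 11 pathway lists (rows) for the 2 Mcl1 comparisons, with the median of each list as a line; Cyp4a12a, Cyp4a12b and Cidea lie beyond the axis in 1 or both panels but count in the medians. On the left 25 of 101 list genes passed, 2 of them beyond the axis, and on the right 0, and lipid droplet genes have a positive median on the left (0.89).

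Genes that follow feeding and the hour of day were set beside these results. Of 10 feeding genes, Igfbp1, which insulin represses, was higher in Mcl1Δhep than in WT (2.49, adjusted p = 0.0475), and the lipogenic Srebf1 (−1.30, adjusted p = 0.0114) and Fasn (−1.54, adjusted p = 0.025) were lower. Of 10 clock genes, Nr1d1 was lower (−0.88, adjusted p = 0.0206). In this comparison 20.2% of all genes were called. With 1 library left out, Igfbp1 passed in 5 of 12 fits, Fasn in 9, Nr1d1 in 10 and Srebf1 in 12. None of them passed with the small structured RNA share as a covariate. The clock genes summed to 246 and 292 CPM in Mcl1Δhep replicates 1 and 2 and 223 CPM in Mcl1Δhep Sting1-/- replicate 1, and 461 to 623 CPM in the 9 others. Single clock genes ran in both directions in Mcl1Δhep against WT (7 negative and 3 positive, −1.37 to 0.86), so this sum is not read as an hour of sampling. The part of feeding state, hour and cell composition in the levels of the 8 genes was not tested.

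In the GRCm39 genome the 8 genes lie apart from each other, on 8 chromosomes: Acot1 at chr12:84056256-84065145, Cpt1a at chr19:3371853-3437996, Pdk4 at chr6:5483097-5496339, Ehhadh at chr16:21580036-21606563, Vnn1 at chr10:23770586-23781241, Plin2 at chr4:86565912-86588459, Acaa1b at chr9:118977091-118986161 and Hadha at chr5:30323302-30360187 (GENCODE vM39). Acaa1b overlaps with Dlec1 on the opposite strand, at a mean of 14.3 counts per library, and all 8 genes are protein-coding.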

How the data were processed

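Whole-liver RNA of 12 mice (3 per genotype, groups and replicate numbers per the labels) had been sequenced on an Illumina instrument. The authors deposited 1 table of raw read counts per gene for each library. Per the labels, reads were aligned with STAR to GRCm39 and counted with featureCounts; versions, annotation release, strand setting and treatment of reads with several positions are not given in the sources used here. The labels and the methods name different RNA extraction kits.

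The 8 genes and all lists were chosen with earlier results of these data known. Symbols came from GENCODE vM39 (39533 of 40551 identifiers matched). Counts were tested as deposited with edgeR 4.0.16 in R 4.3.3: filterByExpr by genotype, TMM factors, 1 fit over 4 genotypes, the quasi-likelihood test, and Benjamini-Hochberg adjustment over 15070 genes, with calls at 0.05. All 12 libraries shared 1 estimate of spread, so intervals of 95% come from that fit. CPM used TMM-scaled totals, and TPM used the union of exons as length. No 2 libraries of a genotype agreed within sampling noise (chi-square per degree of freedom 40.1 to 290). Replicates are taken as separate mice, which the labels do not state, so p-values measure the spread between these samples, and n = 3 and totals of 28826367 to 45266387 counts limit precision. Alternatives were other scalings, DESeq2 1.42.0, no filter, only the compared genotypes, a replicate block, 2 covariates and each library left out. 3 alternatives (only the libraries without Y-linked transcripts, the Y-linked term itself, and all settings for the named pathway genes) were added after seeing the data. Scripts were tested on simulated data. The text names the 8 genes, their paralogs, Ppara, up to 4 called genes per list in the Mcl1 comparisons, and the closest genes by Pearson correlation of log2 CPM (prior count 2, mean of at least 1 CPM); Cyp4a10, Cyp4a14 and Cidea were named after their values were seen. Sequences were read from the GRCm39 genome with canonical transcript starts of GENCODE vM39. 1 called gene of the peroxisomal list is counted but not reported here by name.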

Additional observations from a re-analysis of the deposited data

How the results depend on the processing

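The number of the 8 genes called in Mcl1Δhep against WT was 2 and fell to 1 with the small structured RNA share as a covariate and to 0 with only the 9 libraries without Y-linked transcripts, and it ran from 1 to 3 with 1 library left out. In Mcl1Δhep Sting1-/- against Sting1-/- it was 1, fell to 0 with only the genotypes compared and to 0 without the Y-linked libraries, and ran from 0 to 1 with 1 library left out. In Mcl1Δhep Sting1-/- against Mcl1Δhep it was 0 and ran from 0 to 1, the 1 being Cpt1a without Mcl1Δhep replicate 1. The cause of these changes was not tested. Fits with libraries left out also hold fewer samples, and the part of that was not tested either. The replicate number as a block left the counts at 2, 1, 0, 0 and 0. Same-numbered libraries of different genotypes correlated from −0.644 to 0.317 (median −0.013). Differently numbered ones correlated from −0.317 to 0.544 (median −0.002). No pairing by number was seen, but so few libraries per genotype cannot exclude one. Over all genes, 3050 calls for Mcl1Δhep against WT became 1178 with only the genotypes compared, 1531 with Y-linked expression and 417 with structured RNA as covariates, 4 without the Y-linked libraries and 1233 to 5232 with 1 library left out. For Mcl1Δhep Sting1-/- against Sting1-/-, 121 became 461 with DESeq2, 17 with only the genotypes compared, 45 with Y-linked expression as a term, 0 without the Y-linked libraries and 1 to 249 with 1 library left out. The 0 calls of the other comparisons became 681 (against Mcl1Δhep), 51 (Sting1-/- against WT) and 170 (difference of the Mcl1 contrasts) with DESeq2, and up to 3108 (without Mcl1Δhep replicate 1), 22 (without WT replicate 1) and 1574 (without Mcl1Δhep replicate 1) with 1 library left out. Among the 8 genes, Pdk4 had the fewest counts in WT (43 to 90), and the called Aqp7 and Fgf21 were lower still (means of 0.101 and 0.315 CPM in WT).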
